A study of Mus musculus with 8 samples.

Results

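Hdc, the gene of the histamine-making enzyme histidine decarboxylase, lies on mouse chromosome 2, and 47 genes on both sides of it were followed here in stem and progenitor cells of the bone marrow. The 47 are a list made by position, found by name among the 23282 named genes of the count table, 46 under their own symbol and Sppl2a as the entry 2010106G01Rik, which RefSeq lists as its synonym. They run from Vps39 at the one end to Acoxl at the other. Strongly changed neighbours of Hdc such as Tmem87a lie in the same stretch but are not on the list, so the list is not a full account of the stretch: it holds 44 of its 85 tested genes. In the files 4 members had a mean level under 1 CPM (reads of the gene per 1000000 reads of the library) and are described apart, which left 43.

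The compared groups were 4 samples labelled Hdc-/-, from mice with a C57BL/6 background, and 4 samples labelled WT, from C57BL/6 mice. Each sample was 2000 sorted hematopoietic stem and progenitor cells, the cells from which all blood lineages arise, and its cDNA was amplified before sequencing with a kit that keeps no strand information. Not given in the sources used here are the sort markers, age and sex of the mice, the part of Hdc that was deleted, the strain in which the allele was made and the backcrosses. Whether each sample was a mouse of its own is not stated either, so the p-values cover the spread between samples, and that spread may be technical. Codes in the headers run on within each group, so an order of preparation, if that is what they are, and the group cannot be told apart.

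Neighbouring genes share no pathway by being neighbours. The members are mostly genes that many cell types use: parts of the vesicle traffic, centrosome, splicing and protein breakdown machinery, and enzymes of metabolism. What they have in common with Hdc is linkage: genes close together on a chromosome are usually passed on together.

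Reads on named genes numbered 17218697 to 19775106 per library labelled Hdc-/- and 16322738 to 18054954 per WT library. Hdc itself went against the labels, with 740 to 875 reads in the libraries labelled Hdc-/- and 199 to 275 reads in WT (log2 fold change 1.58, SE 0.11, edgeR quasi-likelihood test, adjusted p = 6.4e-08), so every direction below rests on the labels. Among markers of stem and progenitor cells, Kit averaged 1481 CPM in the libraries labelled Hdc-/-, against 1190 CPM in WT. Cd34 averaged 1365 CPM in the libraries labelled Hdc-/-, against 1370 CPM in WT. Neither Kit nor Cd34 passed in edgeR. Flt3 was higher, at 941.9 CPM in the libraries labelled Hdc-/-, against 798.2 CPM in WT, and Ly6a was lower, at 114.8 CPM in the libraries labelled Hdc-/-, against 255.3 CPM in WT. Markers of other cells moved too. Of 6 tested red cell markers 5 were higher, with a summed level of 234 to 259 CPM in the libraries labelled Hdc-/-, against 11.9 to 16.8 CPM in WT. All 8 neutrophil markers were lower (labelled Hdc-/- 746 to 1307 CPM, WT 2428 to 3744 CPM), as were 5 of 6 tested B cell markers (labelled Hdc-/- 146 to 159 CPM, WT 223 to 293 CPM). Of 4 T and NK cell markers 2 were tested and Nkg7 was lower (labelled Hdc-/- 260 to 277 CPM, WT 326 to 413 CPM for the list). None of 6 tested macrophage markers passed in edgeR (labelled Hdc-/- 66.4 to 79.7 CPM, WT 43.7 to 59.9 CPM), with 4 at an unadjusted p under 0.05, 3 called in DESeq2 and 1 in limma-voom. None of 2 tested stromal markers did either (labelled Hdc-/- 77.6 to 92.5 CPM, WT 52.4 to 81.1 CPM), with 1 at an unadjusted p under 0.05, 1 in DESeq2 and 1 in limma-voom. No list had a marker at 0 in all libraries. The part of these cells in the results below was not tested, and in bulk samples fewer cells of a type and less RNA per cell cannot be told apart.

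In the libraries labelled Hdc-/- 4 members rose and 5 fell. Ttbk2, Tubgcp4, Slc30a4 and Wdr76 were higher, and Snap23, Sord, Haus2, Vps39 and Pdia3 were lower, with fold changes from 1.88 higher for Ttbk2 to 1.61 lower for Snap23. These are 9 of 43 members (20.9%), against 4.76% of the 13005 genes tested in the whole table, where 2.05% were higher and 2.71% lower. An unadjusted p under 0.05 was seen in 15 of the 43 (34.9%), against 18.7% of all tested genes. The threshold was an adjusted p of 0.05 (Benjamini-Hochberg over all tested genes) in edgeR's quasi-likelihood test, and fold changes are the libraries labelled Hdc-/- over WT. The members moved in both directions: the median log2 fold change of the 43 was 0.0033, and 0.0041 over all genes. Their median size without sign was 0.14, against 0.12 over all genes. The changes of the listed members were small. No tested member reached a fold of 2, 3 reached 1.5, and 31 of the 44 tested stayed under 1.2. The 3 were Ttbk2, Snap23 and Sema6d. Of these Sema6d, under a mean of 1 CPM, had an SE of 0.80 and did not pass. Strongly changed genes of the stretch, such as Tmem87a, were kept off the list. These sizes and counts therefore describe the list as drawn up, and not the stretch.

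All 9 lay toward the Vps39 end, 17 to 62 tested genes away from Hdc. From that end up to Slc30a4, a boundary chosen after the values were seen, 9 of 20 members passed. Beyond it, on the way to Hdc and on its other side, none of 24 tested members passed in edgeR as fitted here or in limma-voom. Of all tested genes 4.76% passed in edgeR, so a set of this size may hold no call. An unadjusted p under 0.05 was seen in 3 of the 24 (12.5%, against 18.7% of all tested genes), and DESeq2 called 1, Atp8b4. Atp8b4, which lies 2 tested genes from Hdc, passed as lower under 6 of the 14 alternative settings, so the absence of calls there depends on the setting. The 13 tested members on the Acoxl side of Hdc, the nearest of which is the next tested gene, had log2 fold changes between -0.19 and 0.10. None of those 13 passed in edgeR, DESeq2 or limma-voom, which a set of this size may also give, and 1 of them (7.69%) had an unadjusted p under 0.05. Kcnip3, a gene of that side that is not a member, changed strongly and is given below.

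**Figure D1:**
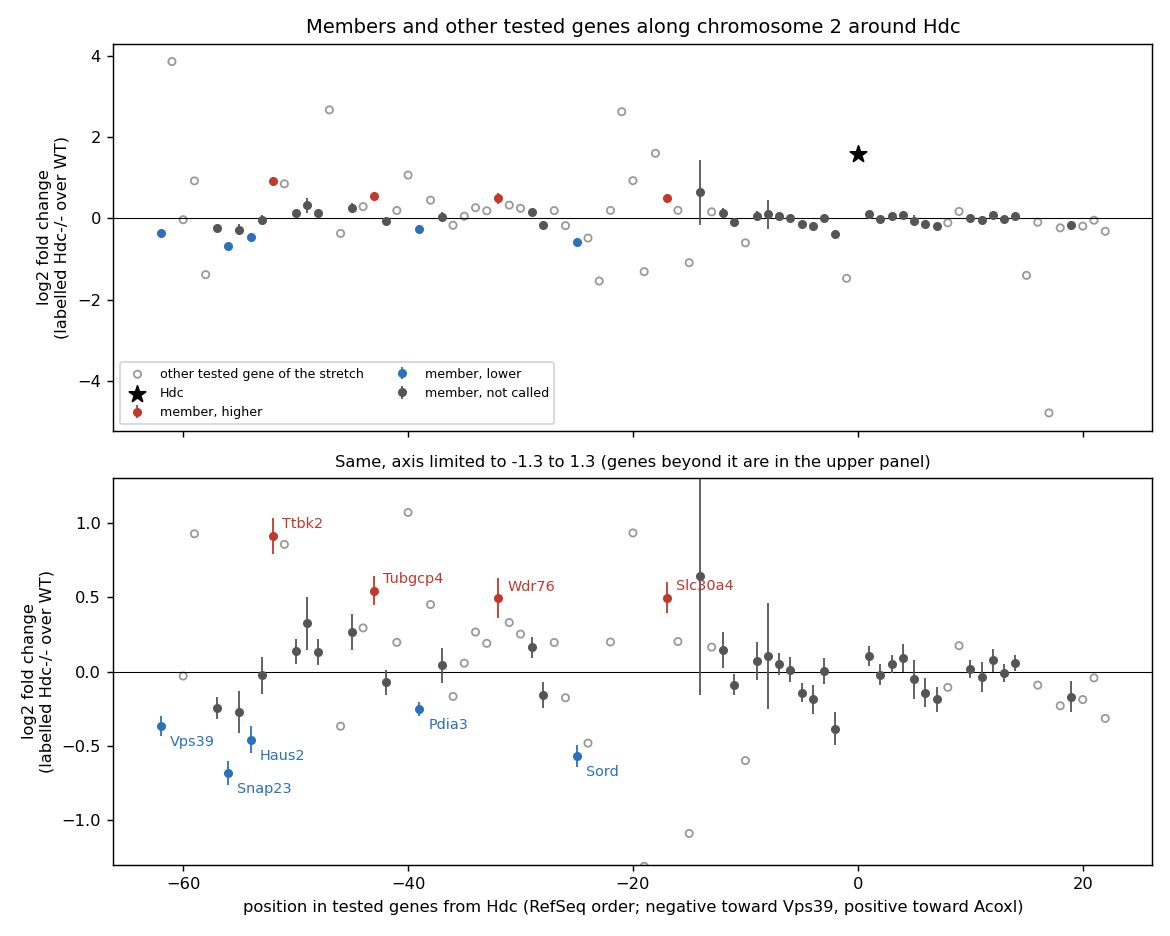
The log2 fold change (libraries labelled Hdc-/- over WT) of each tested gene of the stretch against its position in tested genes from Hdc, in the RefSeq order, with the SE for members. The lower panel limits the axis and names the 9 members past the threshold, which all lie between 62 and 17 tested genes before Hdc. Near Hdc the uncalled member Atp8b4 sits at -0.38, and Sema6d, with few reads, at 0.64.

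The genes of the stretch that are not members give the setting. Of 40 such tested genes, Hdc left out, 6 were higher and 6 lower (30.0%): 9 of 26 up to Slc30a4, and 3 of 14 after it. The whole stretch, here with Hdc, held 22 called genes among 85 (25.9%). The rest of chromosome 2 held 57 among 936 (6.09%), and the other chromosomes held 536 among 11882 (4.51%). The ends of the stretch are those of the list, which was chosen with earlier results of these data known. Called and uncalled genes stood side by side. Slc27a2, which lies between the member Atp8b4 and Hdc, fell by 1.47 on the log2 scale, and Atp8b4 itself stood at -0.38, on either side of the threshold depending on the setting. Tmem87a, between the members Vps39 and Zfp106, rose by 3.87, and the red cell marker Epb4.2, next to the member Ccndbp1, rose by 2.68. On the Acoxl side Kcnip3, between the members Dusp2 and Mrps5, was called lower, with a log2 fold change of -4.79 (SE 0.33).

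The start regions of the 3 called members with the largest rise and the 3 with the largest fall are shown. The start regions were not tested for a link to the changes. They are RefSeq windows of build GRCm38.p6, from 250 bases before the start to 50 after it, 5′ to 3′ on the gene's strand. The counts were made on build mm9, so the positions serve only to identify the windows. Capitals mark 4 motifs, searched separately on both strands, so that matches may share letters: CCAAT, the GC box GGGCGG, the ETS core CCGGAAG and the TATA box TATAAA.
Ttbk2, chr2:120850535-120850834, minus strand: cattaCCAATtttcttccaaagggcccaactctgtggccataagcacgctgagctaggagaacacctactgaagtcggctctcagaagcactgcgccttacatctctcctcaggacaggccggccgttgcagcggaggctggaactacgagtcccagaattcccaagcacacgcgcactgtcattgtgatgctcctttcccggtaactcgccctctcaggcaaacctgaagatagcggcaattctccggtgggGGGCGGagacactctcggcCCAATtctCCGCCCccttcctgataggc
Tubgcp4, chr2:121170918-121171217, plus strand: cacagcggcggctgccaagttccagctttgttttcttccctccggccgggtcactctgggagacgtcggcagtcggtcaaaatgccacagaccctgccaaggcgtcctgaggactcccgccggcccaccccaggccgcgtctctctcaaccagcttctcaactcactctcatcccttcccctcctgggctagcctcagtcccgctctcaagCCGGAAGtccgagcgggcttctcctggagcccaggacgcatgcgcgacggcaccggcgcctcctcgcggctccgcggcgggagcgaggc
Slc30a4, chr2:122702614-122702913, minus strand: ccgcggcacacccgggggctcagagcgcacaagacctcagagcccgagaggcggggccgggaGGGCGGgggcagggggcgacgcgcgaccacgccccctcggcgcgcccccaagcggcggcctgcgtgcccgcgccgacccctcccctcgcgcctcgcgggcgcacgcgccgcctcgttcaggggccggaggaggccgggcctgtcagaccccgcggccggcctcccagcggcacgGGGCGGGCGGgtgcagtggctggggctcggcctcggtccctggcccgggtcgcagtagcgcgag
Snap23, chr2:120567421-120567720, plus strand: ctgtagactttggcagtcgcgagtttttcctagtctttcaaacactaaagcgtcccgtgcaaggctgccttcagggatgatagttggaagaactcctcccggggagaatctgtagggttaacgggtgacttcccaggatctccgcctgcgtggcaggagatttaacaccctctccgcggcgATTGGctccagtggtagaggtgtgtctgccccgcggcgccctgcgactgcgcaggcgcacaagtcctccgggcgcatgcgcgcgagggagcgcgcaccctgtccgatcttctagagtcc
Sord, chr2:122234589-122234888, plus strand: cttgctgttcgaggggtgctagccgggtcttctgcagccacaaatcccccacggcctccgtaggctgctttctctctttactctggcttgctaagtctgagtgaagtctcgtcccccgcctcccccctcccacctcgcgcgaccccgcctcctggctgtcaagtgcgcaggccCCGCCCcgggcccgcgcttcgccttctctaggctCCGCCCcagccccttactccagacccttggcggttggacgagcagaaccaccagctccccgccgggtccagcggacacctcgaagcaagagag
Haus2, chr2:120609132-120609431, plus strand: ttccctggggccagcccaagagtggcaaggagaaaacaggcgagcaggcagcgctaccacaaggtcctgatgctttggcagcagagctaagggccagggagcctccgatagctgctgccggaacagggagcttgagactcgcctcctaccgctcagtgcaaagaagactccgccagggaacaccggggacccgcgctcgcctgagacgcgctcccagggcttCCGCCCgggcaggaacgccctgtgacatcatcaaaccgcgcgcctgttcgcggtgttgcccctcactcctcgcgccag

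The start regions were rich in G and C and had no TATA box. G and C made up 57.3% of the Ttbk2 window, 67.7% of the Tubgcp4 window and 81.7% of the Slc30a4 window, and 60.3%, 66.7% and 65.3% of those of Snap23, Sord and Haus2. Windows were found for 45 of the 47 members, with Vps39 and Eid1 not matched, and their median was 62.7%, against 52.7% over all 32851 windows. TATAAA was found in none of the 8 windows of called members, in 1 of 45 member windows and in 13.6% of all windows. The GC box stood in 33 of 45 member windows (73.3%, against 35.7% of all windows) and in 6 of the 8. CCGGAAG stood in 13 of 45 (28.9%, against 8.86%), among them the Tubgcp4 window, and CCAAT in 11 of 45 (24.4%, against 37.4%), among them those of Ttbk2 and Snap23. Members entered with 1 window each, while all windows include several starts of some genes and are not limited to the genes tested here. The sets compared are therefore not alike, and why the shares differ was not tested. A match is a description of letters, not of a bound factor.

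Among the genes of membrane traffic, Snap23 and Vps39 fell. Snap23 encodes a SNARE protein that fuses vesicles with the plasma membrane. It had 63.5, 72.4, 77.9 and 63.2 CPM in the libraries labelled Hdc-/- (numbers 1 to 3, then the unnumbered library), against 114.7, 105.1, 113.0 and 112.9 CPM in WT libraries 1 to 4. The groups did not overlap, and the gap between them was wider than the spread within either. Means were 69.3 ± 7.19 CPM in the libraries labelled Hdc-/-, against 111.4 ± 4.30 CPM in WT (n = 4 each, SD), with a log2 fold change of -0.69 (SE 0.08, edgeR adjusted p = 3.8e-05). Vps39 is a subunit of HOPS, the tether that brings late endosomes and lysosomes together. It had 113.7, 109.1, 104.1 and 107.6 CPM in the libraries labelled Hdc-/-, against 131.6, 141.2, 133.8 and 153.5 CPM in WT. Here too every library labelled Hdc-/- was below every WT library, with a log2 fold change of -0.37 (SE 0.07, edgeR adjusted p = 0.0036).

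Other genes of that group did not pass. Atp8b4, of the family of lipid flippases, had 80.9, 87.3, 84.3 and 78.2 CPM in the libraries labelled Hdc-/-, against 96.0, 133.4, 116.5 and 85.7 CPM in WT. WT 4 lay below the highest library labelled Hdc-/-, and the spread within WT was wide. The log2 fold change was -0.38 (SE 0.11, edgeR adjusted p = 0.058). It passed without the filter on low counts (-0.39, adjusted p = 0.049), in DESeq2 (-0.38, adjusted p = 0.020), without WT 1 (-0.43, adjusted p = 0.022) and without WT 4 (-0.48, adjusted p = 0.012), as well as in both fits over 6 libraries. It was -0.27 (adjusted p = 0.19) without WT 2, and its sign was the same under all 14 settings. Stard7, which carries phosphatidylcholine to mitochondria, had 261.4, 241.3, 248.6 and 262.5 CPM in the libraries labelled Hdc-/-, against 230.9, 270.3, 257.6 and 260.3 CPM in WT, which overlapped. Its log2 fold change was -0.01, with a 95% interval of -0.13 to 0.11, so that larger changes than that were not seen at this depth. Spg11, whose protein rebuilds lysosomes, stood at -0.16 (SE 0.09), and Usp8, an endosomal deubiquitinase, at -0.02 (SE 0.07). Sppl2a, a protease that cleaves inside membranes and trims Cd74 in B cells, stood at 0.09 (SE 0.09), and Ap4e1, of the AP-4 coat, at -0.05 (SE 0.13). Tmem127 had 0.07 (SE 0.08) and Tmem62 0.32 (SE 0.18), and all overlapped between groups. Of 10 tested members of the group 2 passed as lower and none as higher, against 2.71% lower and 2.05% higher of all tested genes.

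Among the genes of the centrosome, spindle and chromosomes 3 rose and 1 fell, out of 10. Of all tested genes 2.05% were higher and 2.71% lower. The group is small, and 1 of the 3, Wdr76, hung on single libraries, as given below. Ttbk2, the kinase that starts assembly of the primary cilium, had 28.2, 36.6, 28.9 and 28.0 CPM in the libraries labelled Hdc-/-, in the same order, against 15.2, 14.98, 18.0 and 16.4 CPM in WT. Library 2 stood above the other libraries labelled Hdc-/-, and all of these stood above every WT library. Means were 30.4 ± 4.14 CPM in the libraries labelled Hdc-/-, against 16.1 ± 1.39 CPM in WT (n = 4 each, SD), with a log2 fold change of 0.91 (SE 0.12, edgeR adjusted p = 0.00013). Tubgcp4, part of the gamma-tubulin ring that nucleates microtubules, had 52.5, 58.8, 56.6 and 58.4 CPM in the libraries labelled Hdc-/-, against 32.4, 41.9, 37.5 and 43.3 CPM in WT. The groups did not overlap, and the log2 fold change was 0.54 (SE 0.10, edgeR adjusted p = 0.0027). Its gene span overlaps those of Trp53bp1 and Zscan29, so reads of the shared parts cannot be told apart without strand.

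Haus2, a subunit of augmin, which branches microtubules within the spindle, had 32.2, 31.6, 33.3 and 29.8 CPM in the libraries labelled Hdc-/-, against 46.8, 39.7, 45.1 and 42.7 CPM in WT. It was lower in every library labelled Hdc-/-, by 0.46 on the log2 scale (SE 0.09, edgeR adjusted p = 0.0062). Wdr76, a WD-repeat protein of chromatin, had 27.8, 30.2, 33.9 and 26.3 CPM in the libraries labelled Hdc-/-, against 27.2, 19.2, 18.6 and 18.8 CPM in WT. WT 1 stood apart from the other WT libraries and within the range of those labelled Hdc-/-, so the groups overlapped. The log2 fold change was 0.49 (SE 0.13, edgeR adjusted p = 0.045). Leaving out any 1 library labelled Hdc-/-, or WT 2, 3 or 4, ended the call (adjusted p = 0.058 to 0.18), while without WT 1 it was 0.65 (adjusted p = 0.0017).

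The rest of that group did not pass. Ncaph, of the condensin that packs mitotic chromosomes, had 75.4, 64.6, 75.5 and 63.5 CPM in the libraries labelled Hdc-/-, against 74.4, 80.3, 78.9 and 84.0 CPM in WT. Only WT 1 fell inside the range of the other group, and the log2 fold change was -0.19 (SE 0.08, edgeR adjusted p = 0.23). Cep152, a scaffold of centriole duplication, stood at 0.07 (SE 0.13), and Trp53bp1, which directs repair of double-strand breaks, at -0.07 (SE 0.08). Cdan1, whose human counterpart is mutated in a congenital dyserythropoietic anemia, had 36.8 to 47.8 CPM in the libraries labelled Hdc-/-, against 35.6 to 51.9 CPM in WT. Its log2 fold change of -0.03 (SE 0.12) stood beside the rise of the red cell markers given above. Ccndbp1, which binds cyclin D, stood at 0.13 (SE 0.09) and Eid1, an inhibitor of acetyltransferases, at 0.05 (SE 0.07). The span of Eid1 lies within that of Shc4, and reads there cannot be told apart without strand either.

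**Figure D2:**
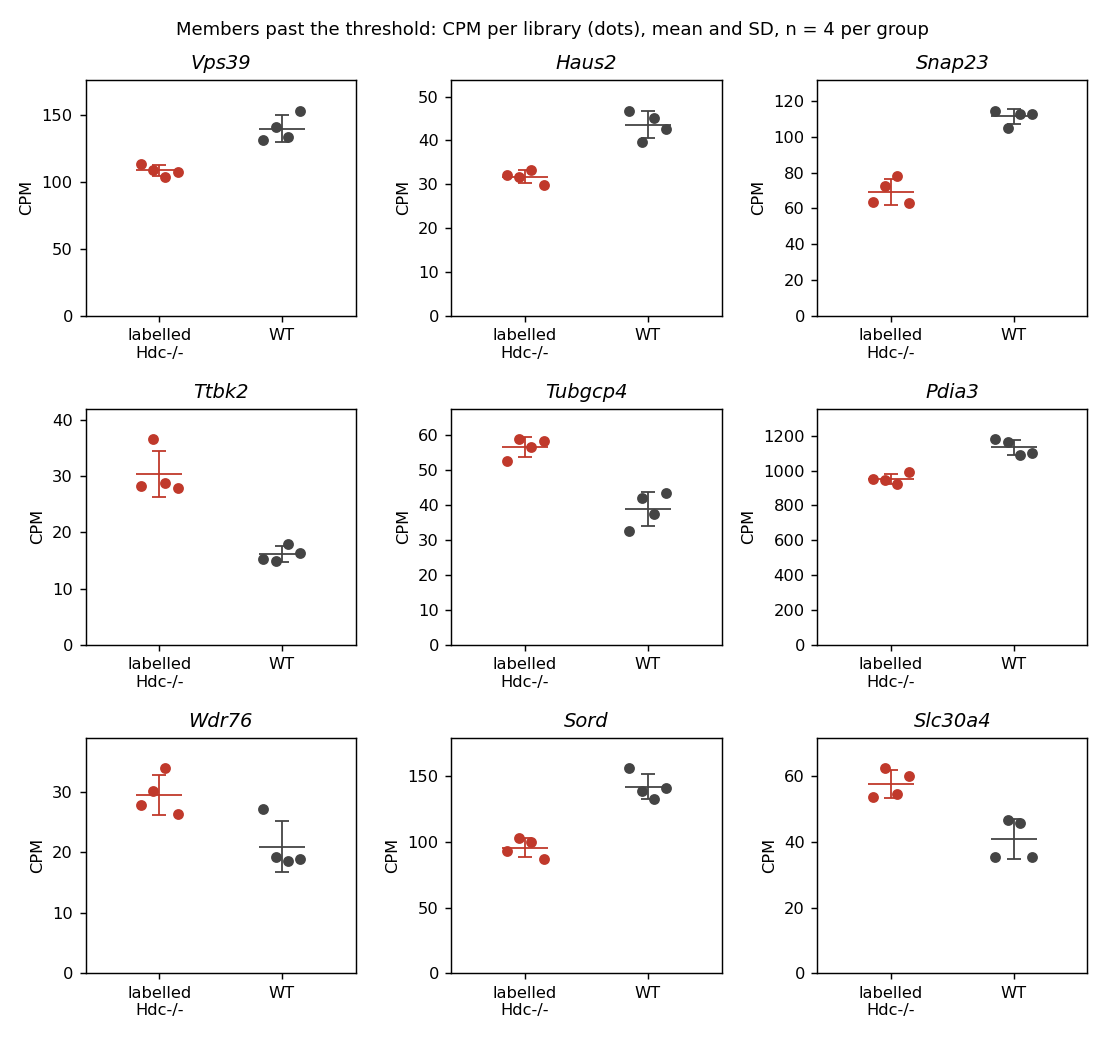
CPM of the 9 members past the threshold in each library (dots), with the mean and SD of the 4 libraries labelled Hdc-/- on the left and the 4 WT libraries on the right of each panel, all axes starting at 0. The groups are apart in 8 panels, and in that of Wdr76 the library WT 1, at 27.2 CPM, lies among the libraries labelled Hdc-/-.

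Of the metabolic and folding enzymes Sord and Pdia3 fell, 2 of 7 tested (28.6%, against 4.76% called of all tested genes). Sord, the dehydrogenase that turns sorbitol into fructose, had 92.7, 102.7, 99.6 and 87.0 CPM in the libraries labelled Hdc-/-, against 155.6, 138.6, 132.6 and 140.3 CPM in WT. The highest library labelled Hdc-/-, at 102.7 CPM, lay below the lowest WT library, at 132.6 CPM. Means were 95.5 ± 7.02 CPM in the libraries labelled Hdc-/-, against 141.8 ± 9.79 CPM in WT (n = 4 each, SD), with a log2 fold change of -0.57 (SE 0.07, edgeR adjusted p = 0.00012). Pdia3 encodes a disulfide isomerase of the endoplasmic reticulum that folds glycoproteins and belongs to the complex loading peptide onto MHC class I. It had 950.5, 944.5, 919.9 and 990.9 CPM in the libraries labelled Hdc-/-, against 1179, 1164, 1088 and 1100.0 CPM in WT. The difference was small but the libraries of each group lay close together and did not overlap, with a log2 fold change of -0.25 (SE 0.05, edgeR adjusted p = 0.0057).

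The other 5 tested enzymes and small proteins of that group did not pass. Adal, a deaminase of modified adenosine phosphates, had 33.1, 38.1, 33.9 and 26.8 CPM in the libraries labelled Hdc-/-, against 23.9, 29.6, 25.7 and 30.5 CPM in WT. The unnumbered library lay inside the WT range, and the log2 fold change was 0.27 (SE 0.12, edgeR adjusted p = 0.25). Dut, which keeps uracil out of DNA by breaking down dUTP, stood at -0.09 (SE 0.07), and Galk2, a kinase of N-acetylgalactosamine, at -0.19 (SE 0.10). Blvra, which turns biliverdin from heme breakdown into bilirubin, had 53.9 to 55.0 CPM in the libraries labelled Hdc-/-, against 53.2 to 73.2 CPM in WT, where WT 1 was the highest. Its log2 fold change was -0.14 (SE 0.10, edgeR adjusted p = 0.48). Serf2 stood at 0.04 (SE 0.12).

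No member of the transcription, RNA and protein synthesis group passed in edgeR or limma-voom. Of its 9 members 2 (22.2%, against 18.7% of all tested genes) had an unadjusted p under 0.05, and DESeq2 called Zfp106, a zinc finger protein that binds RNA. Zfp106 had 203.6, 210.0, 206.6 and 219.7 CPM in the libraries labelled Hdc-/-, against 212.6, 252.1, 252.5 and 279.1 CPM in WT. WT 1 alone overlapped the other group, and the log2 fold change was -0.25 (SE 0.07, edgeR adjusted p = 0.068), or -0.31 without WT 1 (adjusted p = 0.00094). Of the 14 alternatives only 2, DESeq2 and the fit without WT 1, called it. The largest adjusted p of the 14 was 0.32, in an edgeR fit. Ctdspl2, a phosphatase, had 95.6, 103.2, 99.97 and 108.2 CPM in the libraries labelled Hdc-/-, against 89.0, 95.5, 85.7 and 93.0 CPM in WT. The groups were just apart, with 95.6 CPM next to 95.5 CPM, and the log2 fold change of 0.16 (SE 0.07) did not pass (edgeR adjusted p = 0.22).

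Snrnp200, the helicase that unwinds U4 from U6 in the spliceosome, was among the members with the most reads. It had 366.8, 346.5, 347.5 and 381.2 CPM in the libraries labelled Hdc-/-, against 333.0, 354.2, 346.0 and 389.6 CPM in WT, which overlapped throughout. Its log2 fold change was 0.02, with a 95% interval of -0.10 to 0.14. Gabpb1, the partner chain of the ETS factor Gabpa and the tested gene next to Hdc, stood at 0.10 (SE 0.07). Myef2 stood at 0.14 (SE 0.12), Secisbp2l at 0.01 (SE 0.09), Dtwd1, a tRNA-modifying enzyme, at 0.00 (SE 0.09) and Ciao1, of cytosolic iron-sulfur assembly, at -0.04 (SE 0.10). Mrps5, of the small mitochondrial ribosome, stood at -0.17 (SE 0.10).

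In the ubiquitin system neither tested member passed in edgeR, DESeq2 or limma-voom. Of the 2, 1 had an unadjusted p under 0.05, against 18.7% of all tested genes. That member was Cops2, of the COP9 signalosome, which controls cullin ligases. It had 134.6, 133.4, 150.7 and 135.7 CPM in the libraries labelled Hdc-/-, against 155.8, 149.0, 149.2 and 157.6 CPM in WT. Library 3 labelled Hdc-/- lay among the WT libraries, and the log2 fold change was -0.14 (SE 0.06, edgeR adjusted p = 0.24). Ubr1, a ligase of the N-degron pathway, stood at 0.14 (SE 0.09).

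Slc30a4 was the only called member of the 5 in signalling and transport, against 4.76% called and 2.05% higher of all tested genes. It encodes a transporter that moves zinc out of the cytosol into vesicles. It had 53.7, 62.3, 54.4 and 59.8 CPM in the libraries labelled Hdc-/-, against 35.4, 46.5, 45.7 and 35.5 CPM in WT. Within WT the values fell into a lower and a higher pair, and both pairs lay below every library labelled Hdc-/-. The log2 fold change was 0.50 (SE 0.11, edgeR adjusted p = 0.010). Dusp2, a phosphatase that switches off MAP kinases in blood cells, had 275.7, 292.7, 290.5 and 282.8 CPM in the libraries labelled Hdc-/-, against 266.3, 272.1, 272.9 and 286.2 CPM in WT. WT 4 lay inside the range of the other group, and the log2 fold change was 0.06, with a 95% interval of -0.05 to 0.16. Trpm7, a magnesium channel with a kinase domain, stood at 0.05 (SE 0.06), and Shc4, an adaptor with 26 to 76 reads per library labelled Hdc-/- and 27 to 58 reads per WT library, at 0.10 (SE 0.36). Lrrc57, for which no role is given here, is described with Haus2 below.

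Groups that did not overlap were found in 9 of the 43 members (20.9%), against 12.5% of all tested genes. Of these 4 were higher, against 5.64% of all tested genes, and 5 were lower, against 6.88%. They were the called members without Wdr76, and Ctdspl2.

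**Figure D3:**
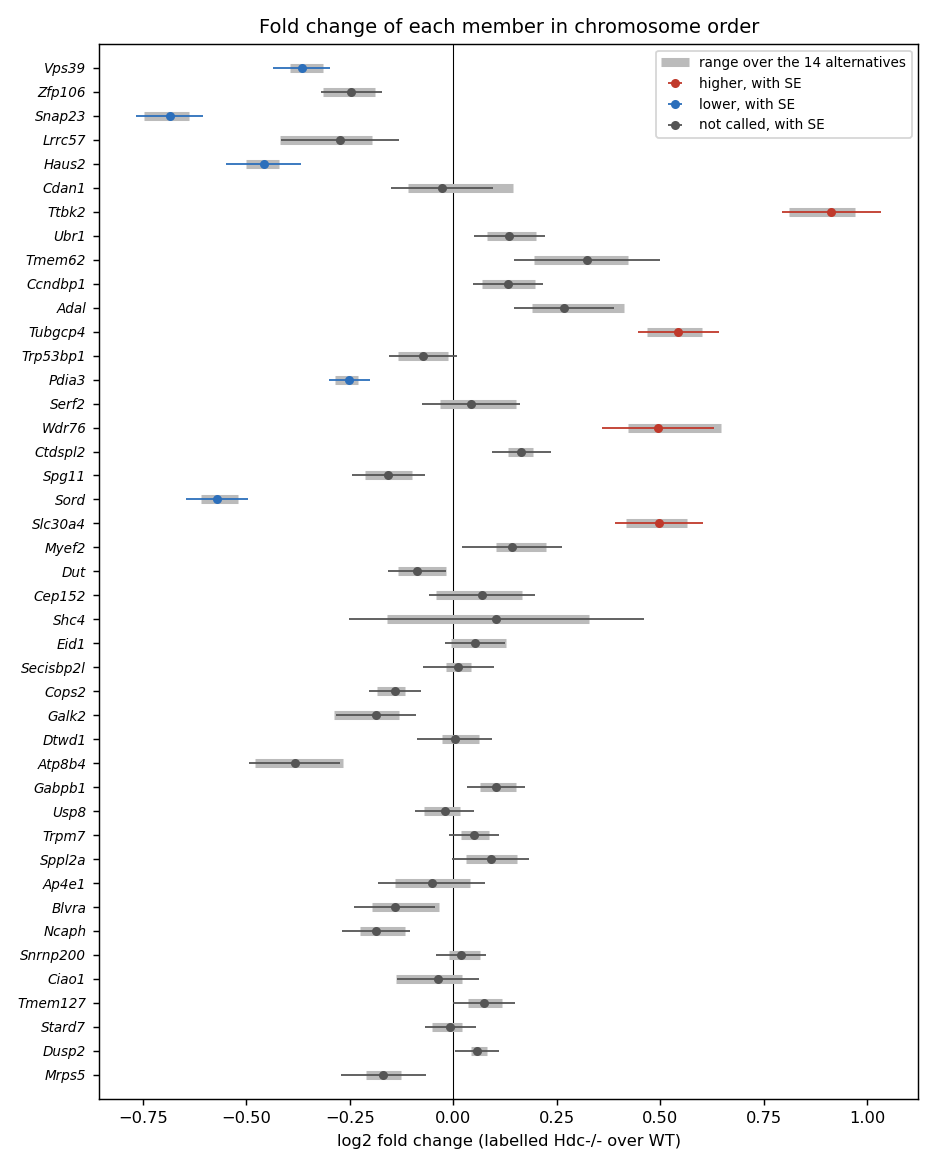
The log2 fold change (libraries labelled Hdc-/- over WT) of the 43 members with a mean of at least 1 CPM, in chromosome order from the Vps39 end at the top to Mrps5 at the bottom, with the SE as a thin line and the range over 14 alternative settings as a grey bar. The grey bars of the 9 called members stay on one side of 0, and those of the members below Slc30a4 lie closer to 0, with Atp8b4 and Shc4 the widest departures.

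Some members start back to back with another gene, so that their start regions adjoin. Among members 3 pairs start head to head within 1000 bases of each other. Haus2 fell by 0.46 on the log2 scale (SE 0.09), and its pair Lrrc57 had 21.1, 25.3, 32.5 and 22.2 CPM in the libraries labelled Hdc-/-, against 33.9, 25.4, 34.9 and 28.0 CPM in WT. Library 3 labelled Hdc-/- reached the WT values, and Lrrc57 did not pass (log2 fold change -0.27, SE 0.14, edgeR adjusted p = 0.32). Their gene spans overlap in the annotation and the kit does not mark strand, so reads of the shared part cannot be assigned. The pair of Cops2, Galk2, had 40.9, 37.3, 43.4 and 46.5 CPM in the libraries labelled Hdc-/-, against 53.2, 47.8, 47.3 and 43.1 CPM in WT. Neither gene passed, at -0.14 (SE 0.06) for Cops2 and -0.19 (SE 0.10) for Galk2.

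For the third pair no difference was seen. Ciao1 had 45.4, 38.3, 44.1 and 47.9 CPM in the libraries labelled Hdc-/-, against 49.3, 43.7, 47.5 and 39.7 CPM in WT. Tmem127 had 116.4, 106.4, 107.1 and 103.9 CPM in the libraries labelled Hdc-/-, against 94.4, 112.2, 108.8 and 96.7 CPM in WT. Both overlapped between groups, with 95% intervals of the log2 fold change from -0.23 to 0.16 for Ciao1 and from -0.07 to 0.22 for Tmem127.

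Another 7 members start head to head with a tested gene that is not a member, a set examined after the values had been seen. In the case of Pdia3 the neighbour went the other way: Catsper2, a gene of the sperm calcium channel, had 5.69 ± 1.01 CPM in the libraries labelled Hdc-/-, against 2.70 ± 0.72 CPM in WT (n = 4 each, SD), with a log2 fold change of 1.07 (SE 0.25, edgeR adjusted p = 0.021), while Pdia3 fell by 0.25. Their spans overlap as well, so these values are uncertain in the shared part, and Catsper2 had few reads next to Pdia3. Tubgcp4 rose by 0.54, and its neighbour Zscan29 stood at 0.29 (SE 0.09, edgeR adjusted p = 0.087), with spans that overlap. Wdr76 rose by 0.49 and Mfap1a, which has a close copy in Mfap1b and is uncertain for that reason, stood at 0.19 (SE 0.09), and Ttbk2 rose by 0.91 and AV039307, at about 1 CPM, stood at 0.86 (SE 0.43). Adal, at 0.27, and Lcmt2, at -0.37 (SE 0.12), had opposite signs and neither passed. The span of Adal overlaps those of Lcmt2 and Zscan29, so these values are uncertain in the shared parts too. The neighbours of Snrnp200 and Mrps5, 1810024B03Rik at 0.17 (SE 0.43) and Zfp661 at -0.23 (SE 0.18), did not pass either.

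Several members are subunits of complexes or have close partners, and those genes lie outside the stretch. Some of them, Vps16, Vps18, Prpf6, Stam, Stam2 and Mrps2, lie elsewhere on chromosome 2. Of 61 tested partner genes of 12 members none rose and 1 fell in edgeR, 10 had an unadjusted p under 0.05 (16.4%, against 18.7% of all genes), and DESeq2 called 2 and limma-voom none. The called gene was Cops3, at -0.24 (SE 0.06, edgeR adjusted p = 0.045), in the complex of Cops2. The 22 partners of the called members Vps39, Haus2, Tubgcp4 and Snap23 had no call in edgeR, DESeq2 or limma-voom, and 3 had an unadjusted p under 0.05. The other HOPS subunits ran from -0.04 to 0.23 on the log2 scale, beside -0.37 for Vps39. The other augmin subunits ran from -0.21 to -0.05, all 7 below 0, beside -0.46 for Haus2. The other gamma-tubulin ring genes ran from -0.10 to 0.01, beside 0.54 for Tubgcp4, and the partners of Snap23 from -0.37 to 0.08, beside -0.69 for Snap23 itself.

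The other 8 complexes belong to members that did not pass. Partners ran from -0.27 to -0.08 for condensin (Ncaph), from -0.24 to 0.10 for the COP9 signalosome (Cops2) and from -0.21 to 0.00 for U5 (Snrnp200). They ran from -0.08 to -0.05 for AP-4 (Ap4e1), from 0.10 to 0.24 for GABP (Gabpb1) and from -0.09 to 0.09 for iron-sulfur assembly (Ciao1). They ran from 0.03 to 0.15 for ESCRT-0 (Usp8) and from -0.30 to 0.01 for the small mitochondrial ribosome (Mrps5).

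**Figure D4:**
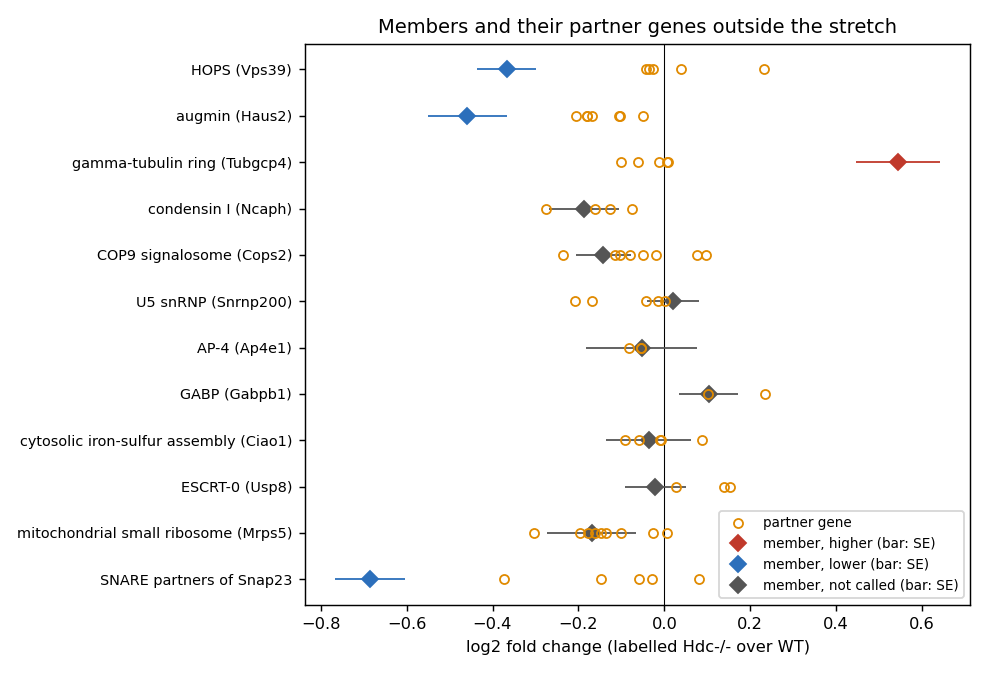
The log2 fold change (libraries labelled Hdc-/- over WT) of 12 members (diamonds, with SE) and of the partner genes named on each line (open circles). The diamonds of the called members Vps39, Haus2, Tubgcp4 and Snap23 lie outside the range of their partners. Those of the uncalled Usp8, Snrnp200 and Ap4e1 also lie outside it, by far less. Those of Ncaph, Cops2, Gabpb1, Ciao1 and Mrps5 lie within it.

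The 4 members under a mean of 1 CPM gave no result. Sema6d, a guidance ligand, had 3 to 25 reads per library labelled Hdc-/- and 0 to 14 reads per WT library, and was tested with a log2 fold change of 0.64 (SE 0.80, edgeR adjusted p = 0.73). Usp50, a gene of the deubiquitinase family next to Usp8, had 2 to 7 reads in the libraries labelled Hdc-/- and 5 to 9 reads in WT, too few for the test. Acoxl, of the acyl-CoA oxidase family, had 0 to 3 reads in the libraries labelled Hdc-/- and 0 to 4 reads in WT. Mal, a proteolipid of membrane rafts known from T cells, had 0 reads in all 8 libraries.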

How the data were processed

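Reads per gene were deposited as raw counts in 1 table for 8 libraries, 4 labelled Hdc-/- and 4 WT. The submitters' processing notes name build mm9 and the tools HTSeq 0.6.1, TopHat2 2.0.4, Bowtie2 and bcl2fastq 1.8.4. Annotation, strand setting and counting mode are not stated there. Per the labels' protocols, RNA of 2000 sorted cells was amplified (SMARTer Ultra Low) and made into libraries (Nextera XT). The name of 1 column shows its group but matches no sample number, so that library is called unnumbered. Amplified reads are not independent molecules. No column was left out, and 2 entries that are bare numbers (at most 0.032% of reads) were.

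Counts were scaled by TMM, filtered with filterByExpr (minimum count 10, minimum total 15) and tested in edgeR 4.0.16 by the quasi-likelihood test, two-sided, with no covariate, over all 13005 tested genes, in R 4.3.3. SE is the log2 fold change divided by the root of F, and 95% intervals use the normal multiplier. CPM are after TMM. The procedure was tested on simulated data. Alternatives were another scaling, no filter, DESeq2 1.42.0, limma-voom (limma 3.58.1), leaving out each library, and the 6 libraries numbered alike with and without the number as a block. Gene order came from RefSeq (GRCm38.p6), which matched 99.2% of tested genes. The members, lists and partner genes were chosen with earlier results of these data known. Values per library are given for members past the threshold, the 6 with the smallest p not past it, the 4 with the highest mean CPM and head-to-head pairs. Other members appear with fewer values. The list of stem and progenitor markers is given in part, since 1 result is not reported here.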

Additional observations from a re-analysis of the deposited data

Results flagged for a closer look

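Among 88 sets of 4 library values, 1 for each tested member and group, 6 held a library far from the others, by a gap past Dixon's 95% critical value. Chance gives about 1 set in 20. In the libraries labelled Hdc-/-, Ttbk2 stood at 36.6 CPM in library 2, with the next at 28.9 CPM, and Cops2 stood at 150.7 CPM in library 3, with the next at 135.7 CPM. In WT the library apart was WT 1 in 4 cases. Wdr76 stood there at 27.2 CPM (next 19.2 CPM), Serf2 at 40.7 CPM (next 31.5 CPM) and Dut at 241.2 CPM (next 203.6 CPM). Usp8 was the low one, at 147.5 CPM (next 165.0 CPM). The cause was not tested.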

How the results depend on the processing

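No called member changed sign under any of the 14 alternatives, and 8 of the 9, all but Wdr76, passed in every fit that left out 1 library. Over those fits the count of members ran from 3 to 4 higher and from 5 to 7 lower, and over all genes from 137 to 382 higher and from 242 to 433 lower. The count of all higher genes fell below the reported 267 by over 1.5 times without library 3 labelled Hdc-/- (137), without the unnumbered one (154), without library 2 labelled Hdc-/- (175) and without WT 2 (170). DESeq2 called 7 members lower and, over all genes, 448 higher. The cause was not tested.

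Libraries of the 2 groups with the same number showed no shared deviation from their group means, with correlations of -0.0607, -0.0165 and -0.00033. Whether they were paired by design is not stated in the labels, and these values cannot tell. With the number as a replicate block, over the 6 libraries numbered in both groups, 2 members were higher and 3 lower, and 123 genes were higher and 189 lower in all. The same 6 libraries with no pairing gave 2 and 4 members, and 134 and 211 genes. Fewer libraries enter both fits. Vps39, Haus2, Slc30a4 and Wdr76 did not pass in either (block adjusted p = 0.12, 0.086, 0.084 and 0.16 in edgeR's quasi-likelihood test), and Pdia3 did not with the block (0.074). Atp8b4, uncalled as reported, was among the lower members in both, with an adjusted p of 0.036 with the block and 0.043 with no pairing.

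Of 35 uncalled tested members 13 changed sign somewhere, all with values near 0 except Sema6d and Shc4, which had few reads. Without the filter Dtwd1 stood at -0.00070. With the block Cdan1 stood at 0.144, Serf2 at -0.0317, Eid1 at -0.00217, Shc4 at -0.0734 and Dtwd1 at -0.00771. With no pairing they stood at 0.133, -0.0328, -0.00658, -0.0726 and -0.0113 in that order of genes. Leaving out 1 library gave ranges of -0.110 to 0.0677 for Cdan1, -0.0206 to 0.151 for Serf2, -0.0363 to 1.24 for Sema6d, -0.0425 to 0.167 for Cep152, -0.162 to 0.327 for Shc4, -0.0171 to 0.0393 for Secisbp2l and -0.0263 to 0.0628 for Dtwd1. They were -0.0705 to 0.0153 for Usp8, -0.140 to 0.0399 for Ap4e1, -0.0100 to 0.0646 for Snrnp200, -0.0939 to 0.0219 for Ciao1 and -0.0506 to 0.0213 for Stard7.

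The 4 members under a mean of 1 CPM had too few reads to show a change, and 4 libraries a group limit the precision of the rest.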
